A study of Mus musculus musculus x M. m. domesticus and Mus musculus domesticus and Mus musculus with 12 samples.

Results

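Of 7000 genes measured in whole testis, 127 (1.81%) were far higher in *musculus* than in *domesticus* males, and these are described here. A gene was chosen when the lowest of its 3 *MxM* values lay at least 0.75 log2 units above the highest of its 3 *DxD* values. The genes were therefore selected on the difference between these species, which is given as a description with no test. *DxD* males were fertile F1 males of a LEWES/EiJ mother and a WSB/EiJ father, both *domesticus* strains. *MxM* males were fertile F1 males of a PWK/PhJ mother and a CZECHII/EiJ father, both *musculus* strains. The reciprocal hybrids carried 1 genome of each species. *DxM* males had a LEWES/EiJ mother and a PWK/PhJ father and were fertile, and *MxD* males had a PWK/PhJ mother and a LEWES/EiJ father and were sterile. All 12 males were killed at 60 days of age, 3 per genotype, and each was measured on 1 Affymetrix Mouse Genome GeneChip array. WSB/EiJ and CZECHII/EiJ alleles are not in the hybrids, so the species males are not their parents, and a gene that differs within a species can place a hybrid outside the range of the species males.

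*M. domesticus* and *M. musculus* are closely related house mice whose hybrid males can be sterile in 1 direction of the cross. Both hybrids carry the same autosomal genomes, while a hybrid male receives its X chromosome from its mother and its Y from its father. In a hybrid, the transcripts of both alleles of an autosomal gene are measured together. If each allele kept the output it has in its own species, the hybrid would lie halfway between the species on the linear scale, which for large differences is much nearer to the higher species on a log2 scale. The probes of the array come from reference sequence of the laboratory mouse C57BL/6, largely of *domesticus* origin. Probe sequences were not used here, so whether probes match the alleles of either species equally was not tested, and neither was whether expression was lost. Genes are given by Ensembl identifier, since the files used here pair only 1 of the 127 with a gene symbol.

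The values are quantile normalized log2 expression values, so each of the 12 arrays holds the same sorted set, from 3.08 to 13.26 with a median of 8.14. Since the arrays hold 1 common set of values, a value states the rank of a gene in its array, and the values of different genes are not compared here as amounts of RNA. *MxM* replicate 3 stood apart: its value was under that of each other male by 1 log2 unit or more in 131 genes, against 0 to 4 genes for any other male. It was the lowest *MxM* male for 23 of the 127 genes, a count shaped by the rule, which disfavours genes in which an *MxM* male is low. With this male left out of the rule 140 genes were chosen. All 127 were among them, which was fixed in advance, since leaving a male out of this rule can only add genes.

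The same rule with the genotypes exchanged chose 108 genes (1.54%) that were far higher in *DxD*, so large differences ran in both directions. The chosen genes were 1.74-fold to 30.5-fold higher in *MxM*, with a median of 2.37-fold. The gap between the lowest *MxM* and the highest *DxD* value had a median of 0.97 log2 units. It was at least 2 units in 12 genes, 1 to 2 units in 48 and under 1 unit in 67. The last gene inside the threshold, ENSMUSG00000009535, had a gap of 0.75, with *DxD* values of 7.16, 7.30 and 7.15 and *MxM* values of 8.05, 8.16 and 8.16. ENSMUSG00000031887 and ENSMUSG00000072734 came next inside, with gaps of 0.75 and 0.76. The first genes outside, ENSMUSG00000000301, ENSMUSG00000056888 and ENSMUSG00000053644, had gaps of 0.74, so the border of the set passes through genes with nearly equal differences.

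The largest gap was that of ENSMUSG00000038170 on chromosome 3. It measured 3.87 in each of the 3 *DxD* males, 8.87, 8.78 and 8.77 in *MxM*, 7.78, 7.77 and 7.87 in *DxM* and 7.60, 7.70 and 7.51 in *MxD*. In every *DxD* male it ranked 3rd from the bottom of the array, whereas in *MxM* it ranked 4423 or higher of 7000. All 6 hybrid males lay between the species and close to *MxM*. The difference between *MxM* and *DxD* was 30.5-fold. Halfway between the species on the linear scale corresponds to 7.85 in log2 units and halfway on the log2 scale to 6.34. The hybrid means of 7.80 ± 0.05 (SD, n = 3) in *DxM* and 7.61 ± 0.09 (SD, n = 3) in *MxD* were near the first of these values.

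ENSMUSG00000019853 followed the same layout from a higher base. Its values were 6.11, 6.01 and 6.11 in *DxD*, 9.80, 9.74 and 9.90 in *MxM*, 8.87, 8.93 and 8.88 in *DxM* and 8.88, 8.84 and 8.80 in *MxD*. The 6 hybrid males spanned 8.80 to 8.93, beside a linear halfway value of 8.92, and lay below every *MxM* male. ENSMUSG00000049504, on chromosome 3, measured 5.11, 5.29 and 5.09 in *DxD* and 8.64, 8.54 and 8.52 in *MxM*. Its hybrid means were 7.60 ± 0.15 (SD, n = 3) in *DxM* and 7.55 ± 0.13 (SD, n = 3) in *MxD*, with a linear halfway value of 7.70.

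The layout was not limited to genes with low values. ENSMUSG00000050188, on chromosome 4, measured 8.65, 8.42 and 8.45 in *DxD*, above the median of the array, and 11.48, 11.43 and 11.42 in *MxM*. Its *DxM* values were 10.75, 10.79 and 10.74 and its *MxD* values 10.66, 10.86 and 10.64, beside a linear halfway value of 10.62. ENSMUSG00000038005 measured 7.92 ± 0.05 in *DxD* and 10.79 ± 0.06 in *MxM*, with 9.96 ± 0.10 in *DxM* and 10.01 ± 0.05 in *MxD* (SD, n = 3 each) and a linear halfway value of 9.97. Among the 12 genes with the largest gap, both hybrids were nearer to the linear than to the log2 halfway value in 8, and in 5 both were within 0.25 log2 units of it.

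Other genes of these 12 were more than 0.25 log2 units above or below the linear halfway value in a hybrid or in both. ENSMUSG00000032741, ENSMUSG00000050074 and ENSMUSG00000005161, which lay above it in both hybrids, still count among the 8 nearer to it than to the log2 one. ENSMUSG00000032741 was at the *MxM* level in *DxM* males (8.67, 8.04 and 8.47 against 8.65, 8.12 and 8.12) and had a lower mean in *MxD* (8.27, 7.68 and 7.80). The groups of its hybrids overlapped each other and the *MxM* males. The difference of -0.48 log2 units between *MxD* and *DxM* did not pass in limma without the replicate number of the males as a block (adjusted p = 0.181) and passed with it (adjusted p = 0.00554), each *MxD* male being below the *DxM* male of the same number. ENSMUSG00000074491 lay nearer to *DxD*, with 7.27, 7.30 and 7.24 in *DxM* and 7.12, 7.44 and 6.86 in *MxD* against 6.56, 6.43 and 6.23 in *DxD* and 8.84, 8.95 and 8.96 in *MxM*. ENSMUSG00000050074 and ENSMUSG00000005161 were above the linear halfway value in both hybrids, with means of 7.15 and 7.42 beside 7.08 for the first and of 7.40 and 7.63 beside 7.16 for the second (*DxM* then *MxD*). ENSMUSG00000032673 was below it in both, with 6.18 and 6.45 beside 6.83, as was ENSMUSG00000001930, with 7.11 and 6.69 beside 7.50. The hybrids of these 4 genes did not differ without the block at 5%, and with it they did (limma adjusted p = 0.0307 for ENSMUSG00000050074, 0.0284 for ENSMUSG00000005161, 0.043 for ENSMUSG00000032673 and 0.0045 for ENSMUSG00000001930).

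**Figure D1:**
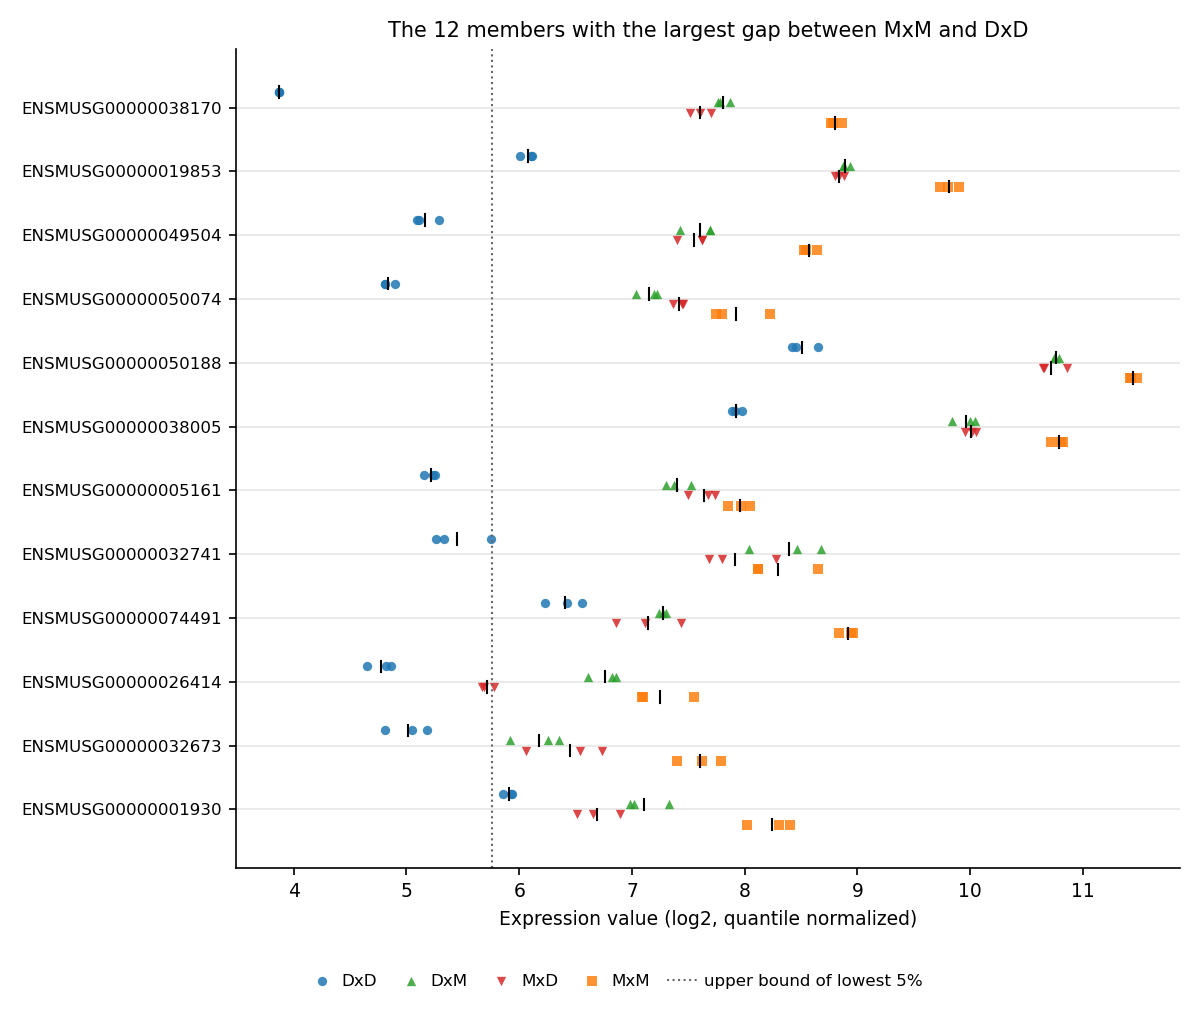
Expression values (log2, quantile normalized) of the 12 genes with the largest gap between *MxM* and *DxD*, with 1 point per male, a black bar at the mean of 3 males and a dotted line at the upper bound of the lowest 5% of an array (5.76). In ENSMUSG00000038170 the *DxD* males sit together at 3.87 and the 6 hybrid males between 7.51 and 7.87, whereas in ENSMUSG00000026414 the hybrids separate, with *MxD* at 5.71 and *DxM* at 6.76.

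In most of the 127 genes the hybrids lay between the species. On a scale on which 0 is the *DxD* mean and 1 the *MxM* mean in log2 units, the median position was 0.55 in *DxM* and 0.57 in *MxD*. These differed by less than the spread between males, whose own medians ran from 0.53 to 0.58 in *DxM* and from 0.53 to 0.58 in *MxD*. The lower and upper quartiles over genes were 0.40 and 0.73 in *DxM* and 0.37 and 0.73 in *MxD*. On linear values, the medians were 0.44 and 0.46. Without *MxM* replicate 3 they were 0.57 and 0.56 in log2 units. The species values that chose the genes enter these positions, which are therefore given without a test.

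The position was highest in both hybrids for the genes with the largest gap. The 12 genes with a gap of at least 2 log2 units had median positions of 0.75 in *DxM* and 0.73 in *MxD*. The 48 genes with a gap of 1 to 2 units had 0.58 and 0.50, and the 67 with a smaller gap 0.49 and 0.57. In the first class the hybrids were nearer to the linear than to the log2 halfway value, with median distances of -0.02 and -0.11 log2 units from the linear one and 0.76 and 0.71 from the log2 one (*DxM* then *MxD*). In the second class the distances were -0.08 and -0.17 from the linear and 0.09 and -0.001 from the log2 halfway value. In the third they were -0.09 and -0.03 from the linear and -0.01 and 0.09 from the log2 one, so that neither value was nearer in both hybrids. Over all 127 genes the medians were -0.07 in *DxM* and -0.08 in *MxD*, and the mean of *DxM* exceeded the linear halfway value in 47 genes and that of *MxD* in 53.

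All 6 hybrid males lay strictly between the highest *DxD* and the lowest *MxM* male in 73 of the 127 genes. Every hybrid male was above every *DxD* male in 104 genes and below every *MxM* male in 92. The rule had already set the *DxD* and *MxM* males of these genes at least 0.75 log2 units apart, which favours such separation. Shares over all genes are not given, so these counts only describe the set. Both hybrid means lay between the species means in 114 genes. A hybrid mean exceeded the *MxM* mean in 4 genes, in none of them in both hybrids, and fell below the *DxD* mean in 10 genes, in 6 of them in both.

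**Figure D2:**
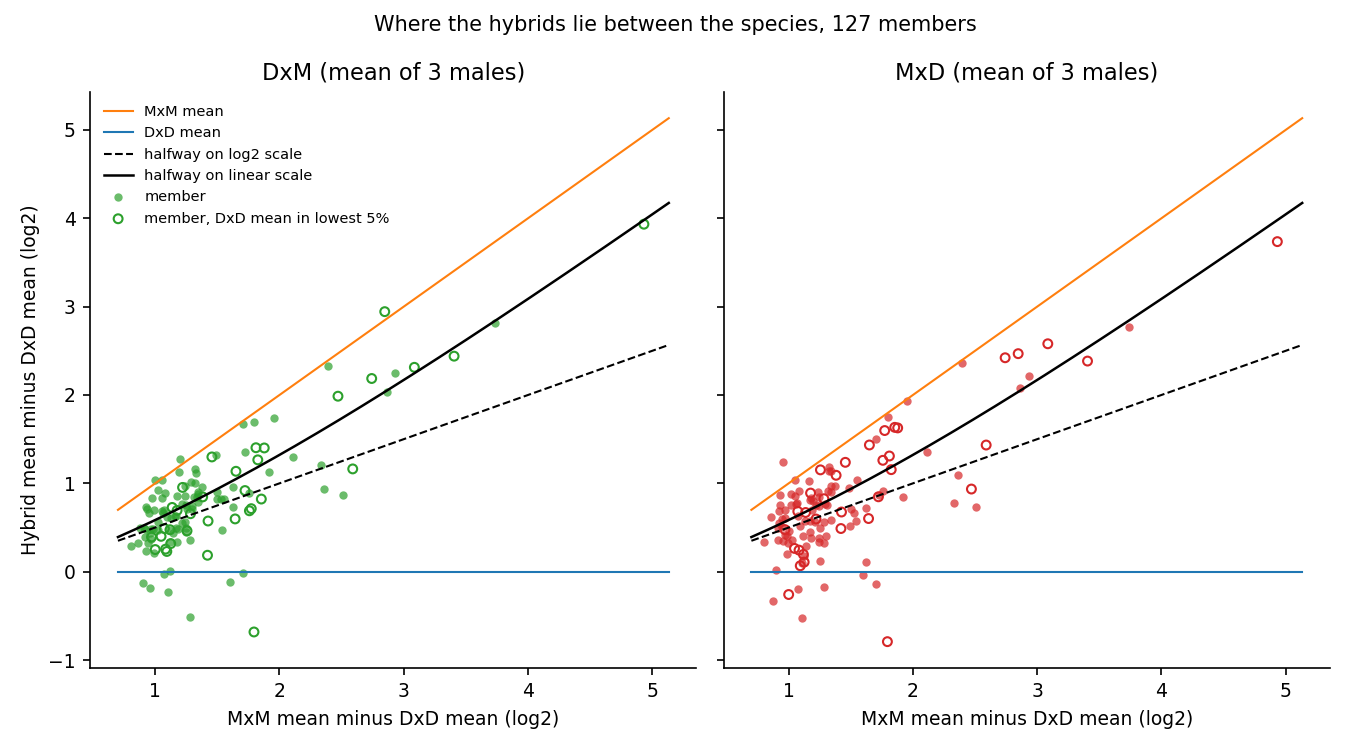
Hybrid mean minus *DxD* mean against *MxM* mean minus *DxD* mean (both log2) for the 127 genes, in *DxM* (left) and *MxD* (right), with 1 point per gene and open points for genes whose *DxD* mean is in the lowest 5% of the array. Lines mark the *DxD* mean, the *MxM* mean and the values halfway between them on the log2 (dashed) and linear (solid) scales. Genes with small differences scatter around both halfway lines, genes with large differences lie mostly nearer the solid one, and a few lie on the *DxD* line or below it.

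In some genes the hybrids were at or near the *MxM* level. ENSMUSG00000032456 measured 6.84, 6.99 and 7.18 in *DxD* and 9.12, 9.60 and 9.47 in *MxM*. Its *DxM* values were 9.12, 9.48 and 9.41 and its *MxD* values 9.18, 9.58 and 9.35, so that both hybrids overlapped *MxM* and neither came near *DxD*. ENSMUSG00000025451 had positions of 0.95 in *DxM* and 0.98 in *MxD*. ENSMUSG00000022191 had 0.89 and 0.99, with its *DxM* males (9.18, 9.29 and 9.22) below every *MxM* male (9.37, 9.41 and 9.55). ENSMUSG00000059498, on chromosome 1, had 0.98 and 0.88, with *MxD* values of 8.60, 8.83 and 8.73 against 8.79, 8.99 and 8.98 in *MxM*.

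In other genes the hybrids were at the *DxD* level. ENSMUSG00000073421 measured 7.06, 6.91 and 7.30 in *DxD*, 7.05, 6.96 and 6.90 in *DxM*, 6.95, 7.13 and 7.07 in *MxD* and 8.77, 8.57 and 8.73 in *MxM*. The hybrid and *DxD* males overlapped, and all 9 were more than 1 log2 unit below the *MxM* males. ENSMUSG00000021622 (positions of -0.01 and -0.08 in *DxM* and *MxD*), ENSMUSG00000032021 (-0.03 and -0.19) and ENSMUSG00000043336 (-0.14 and 0.02) were likewise near *DxD*. Since the *MxM* males also carry CZECHII/EiJ alleles and the hybrids do not, a difference between strains of *musculus* and a difference between species cannot be told apart in these genes.

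A few genes went below *DxD* in the hybrids, and they are named here after their values were seen. ENSMUSG00000035473 measured 8.72, 8.79 and 8.89 in *DxD* and 10.08, 10.09 and 10.07 in *MxM*, but 8.35, 8.30 and 8.21 in *DxM* and 8.60, 8.67 and 8.60 in *MxD*. Both hybrids were below every *DxD* male. ENSMUSG00000064141, on chromosome 4, measured 6.33 ± 0.09 in *DxD*, 6.10 ± 0.05 in *DxM*, 5.81 ± 0.25 in *MxD* and 7.43 ± 0.11 in *MxM* (SD, n = 3 each). ENSMUSG00000021125 was at the bottom of the array in the hybrids, with 3.08, 3.08 and 4.20 in *DxM* and 3.08, 3.87 and 3.08 in *MxD*, against 3.996, 4.06 and 4.34 in *DxD* and 5.62, 5.85 and 6.32 in *MxM*. The value 3.08 is the lowest that an array can hold after normalization.

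The *DxD* values of the 127 genes were often low but seldom at the floor. A mean below 5.76, the upper bound of the lowest 5% of an array, was found in *DxD* for 34 of the 127 genes (26.8%), in *DxM* for 16, in *MxD* for 14 and in *MxM* for 3. Over all 7000 genes the *DxD* mean was below this bound in 349 (4.99%). The other 93 genes had *DxD* means above it, of which 2 were in the highest 25% of the array. Under the reversed rule, 20 of the 108 genes (18.5%) had an *MxM* mean below the bound, so low values in the lower species occurred in both directions. The rule used the *DxD* and *MxM* values, so nothing is read from these shares.

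At the very bottom were few genes. The *DxD* mean was below 5.00, the bound of the lowest 1%, in 13 of the 127 genes. Any *DxD* male held 1 of the 3 lowest values of its array in 4 genes of the table, and 3 of these were among the 127. ENSMUSG00000054932, on chromosome 5, had the lowest value of the array, 3.08, in each of the 3 *DxD* males. It measured 4.15, 4.09 and 4.52 in *MxM*, 3.996, 4.24 and 3.08 in *DxM* and 3.87, 4.09 and 3.94 in *MxD*. All 12 males thus ranked within the bottom 19 genes, and the fold change of 2.26 between species rests on values at the floor.

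ENSMUSG00000038170, described above, was the second of these genes, but in *MxM* and in the hybrids it was far from the bottom of the array, at rank 2492 or higher. The third was ENSMUSG00000040809 on chromosome 3, with 4.66, 3.72 and 3.72 in *DxD* and 5.43, 5.94 and 6.30 in *MxM*. ENSMUSG00000028133, also on chromosome 3, measured 3.94, 3.94 and 4.15 in *DxD*, 5.34, 5.66 and 5.96 in *MxM*, 4.97, 5.18 and 5.28 in *DxM* and 5.21, 5.57 and 5.54 in *MxD*. ENSMUSG00000021684 had a *DxD* mean of 4.52 ± 0.12 (SD, n = 3) and ENSMUSG00000021125 of 4.13 ± 0.18 (SD, n = 3). An SD of 0 over males, as in ENSMUSG00000054932 and ENSMUSG00000038170, comes from equal ranks and does not measure the error of the signal. According to the methods, genes were kept only if perfect match probes exceeded mismatch probes in all 12 males, so the lowest genes had passed detection in *DxD*, and genes undetected in *DxD* were not analysed here.

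The hybrids were also placed separately for genes with and without low *DxD* values. The 34 low genes had median positions of 0.48 in *DxM* and 0.63 in *MxD*, and the other 93 had 0.56 and 0.53. All 6 hybrid males lay between the species in 17 of the 34 and in 56 of the 93. Of the 34 low genes, 10 had an *MxM* mean above the lowest 25% of the array (7.03) and 3 a mean above its median. The median fold difference between species was 2.93 in the 34 genes and 2.32 in the 93. Both the split and the fold use the *DxD* values, and a lower *DxD* value favours a larger fold, so nothing is read from this difference. The largest differences among the 93 were those of ENSMUSG00000019853 at 13.3-fold and ENSMUSG00000050188 at 7.64-fold.

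**Figure D3:**
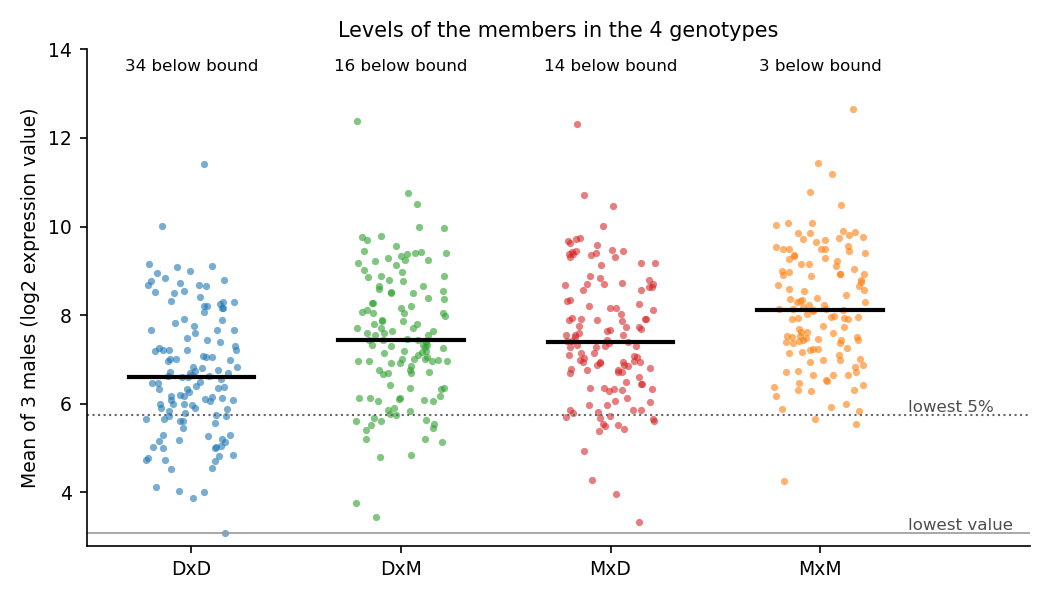
Mean log2 expression value of each of the 127 genes in the 4 genotypes, with 1 point per gene, a black bar at the median over genes (6.61 in *DxD*, 7.44 in *DxM*, 7.40 in *MxD*, 8.12 in *MxM*), a dotted line at the upper bound of the lowest 5% of an array and a grey line at the lowest value. In *DxD* 34 genes are below the dotted line and 1 is at the lowest value, while most are spread above.

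The reciprocal hybrids were compared with each other because the rule used neither. After Benjamini-Hochberg adjustment over all 7000 genes at 5% (limma on the 6 hybrid arrays), 16 of the 127 genes (12.6%) differed, 8 higher in *MxD* and 8 higher in *DxM*. Over all genes 4.99% differed, with 2.57% higher and 2.41% lower in *MxD*. Hybrid males of the same replicate number deviated together from their genotype means, although no source used here says that they are paired. A pairing by number is thus inferred from these same values. With the number as a block 46 of the 127 genes differed, 23 in each direction, against 23.5% of all genes. The males of the hybrids did not overlap in 44 of the 127 genes (34.6%), against 26.4% of all genes. The count of 16 depends on single males, as does the share of all genes. It was 9 without *DxM* replicate 1 (2% of all genes differed), 8 without *DxM* replicate 2 (2.3%) and 3 without *DxM* replicate 3 (0.9%). It was 17 without *MxD* replicate 1 (7.16%), 6 without *MxD* replicate 2 (2.17%) and 4 without *MxD* replicate 3 (1.16%). Of the 16, 6 were among the 34 genes with low *DxD* values, and 25 of all 349 low genes differed (7.16%). With the block, 16 of the 34 differed, and 111 of the 349 (31.8%).

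The size of most differences between the hybrids was small. The absolute difference had a median of 0.16 log2 units in the 127 genes and 0.12 in all genes, and was at least 0.5 in 11 of the 127 (8.66%) and in 2.99% of all genes. The median signed difference was -0.03 in the 127 genes. The median SD over the 3 males was 0.11 in *DxM* and 0.13 in *MxD* for the 127 genes, and 0.11 and 0.12 for all genes.

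The largest difference was that of ENSMUSG00000037086 (1110059M19Rik), the only one of the 127 genes that is stated to be X-linked in the sources used here. It measured 6.06, 6.09 and 6.01 in *DxD* and 5.92, 5.79 and 5.88 in *DxM*, whose males share the *domesticus* X of LEWES/EiJ mothers. It measured 6.88, 7.02 and 7.13 in *MxM* and 7.34, 7.37 and 7.19 in *MxD*, whose males share the *musculus* X of PWK/PhJ mothers. Each hybrid was thus near the species with the same X chromosome, with every *DxM* male below every *DxD* male and every *MxD* male above every *MxM* male. *MxD* was higher than *DxM* by 1.44 log2 units (SE 0.09, limma adjusted p = 0.000285, with 9.37e-06 to 0.0814 over the alternatives). The gene is classed as postmeiotic. Its chromosome is known here because the study listed it for its expression in these same hybrids, so its difference is not independent evidence on X-linked genes, and chromosomes are not given here for 90 of the 127 genes.

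Among genes higher in *DxM*, ENSMUSG00000026414 on chromosome 1 differed most. It measured 6.86, 6.61 and 6.82 in *DxM* and 5.78, 5.69 and 5.67 in *MxD*, between 4.82, 4.86 and 4.65 in *DxD* and 7.10, 7.09 and 7.55 in *MxM*. The difference between *MxD* and *DxM* was -1.05 log2 units (SE 0.09, limma adjusted p = 0.00127), although the hybrids share their autosomal genomes. The gene is classed as mitotic, that is, most induced in spermatogonia. ENSMUSG00000071033 measured 7.57, 7.82 and 7.71 in *DxM* and 6.90, 6.97 and 6.78 in *MxD* (limma adjusted p = 0.00295). Its *MxD* males were below every *DxD* male (7.26, 7.22 and 7.15), while its *DxM* males lay between the species. ENSMUSG00000028545, on chromosome 4, measured 7.28, 7.36 and 7.66 in *DxM* but 6.79, 6.93 and 6.72 in *MxD*, at the level of *DxD* (limma adjusted p = 0.0184), a call lost without *DxM* replicate 3 or without *MxD* replicate 3. ENSMUSG00000033805 and ENSMUSG00000037493 differed by -0.64 and -0.58 log2 units, and in the latter *DxM* reached the *MxM* level (7.18 and 7.14). ENSMUSG00000044447 differed by -0.51 log2 units at values of 4.80 in *DxM* and 4.29 in *MxD*, which are near the floor. These last 3 calls were each lost without 3 or more of the 6 hybrid males, left out in turn.

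Among genes higher in *MxD*, ENSMUSG00000002944 measured 5.54, 5.73 and 5.10 in *DxM* and 6.15, 6.40 and 6.47 in *MxD* (limma adjusted p = 0.0174). Its species values were 4.48, 5.22 and 4.53 in *DxD* and 6.22, 6.21 and 7.12 in *MxM*. Its *MxD* males overlapped *MxM* and its *DxM* males overlapped *DxD*. ENSMUSG00000040809 measured 4.69, 5.12 and 4.76 in *DxM* and 5.45, 5.92 and 5.64 in *MxD*, a difference of 0.81 log2 units (limma adjusted p = 0.0174). Neither of these genes passed when the spread was shared by all 4 genotypes (limma adjusted p = 0.0767 and 0.106). Over all alternatives the adjusted p ran from 0.00494 to 0.283 for the first and from 0.000455 to 0.254 for the second. ENSMUSG00000032092, ENSMUSG00000021684 and ENSMUSG00000007080 were higher by 0.69, 0.57 and 0.48 log2 units. The calls of all 5 were lost without *DxM* replicate 3, without *MxD* replicate 2 or without *MxD* replicate 3. In 11 of the 16 genes the hybrids lay on opposite sides of the log2 halfway value between the species, 1 nearer to *MxM* and the other nearer to *DxD*. These genes were picked because their hybrids differed, and the halfway value uses the species values of the rule. The share among the other chosen genes is not given, so nothing is read from this count.

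**Figure D4:**
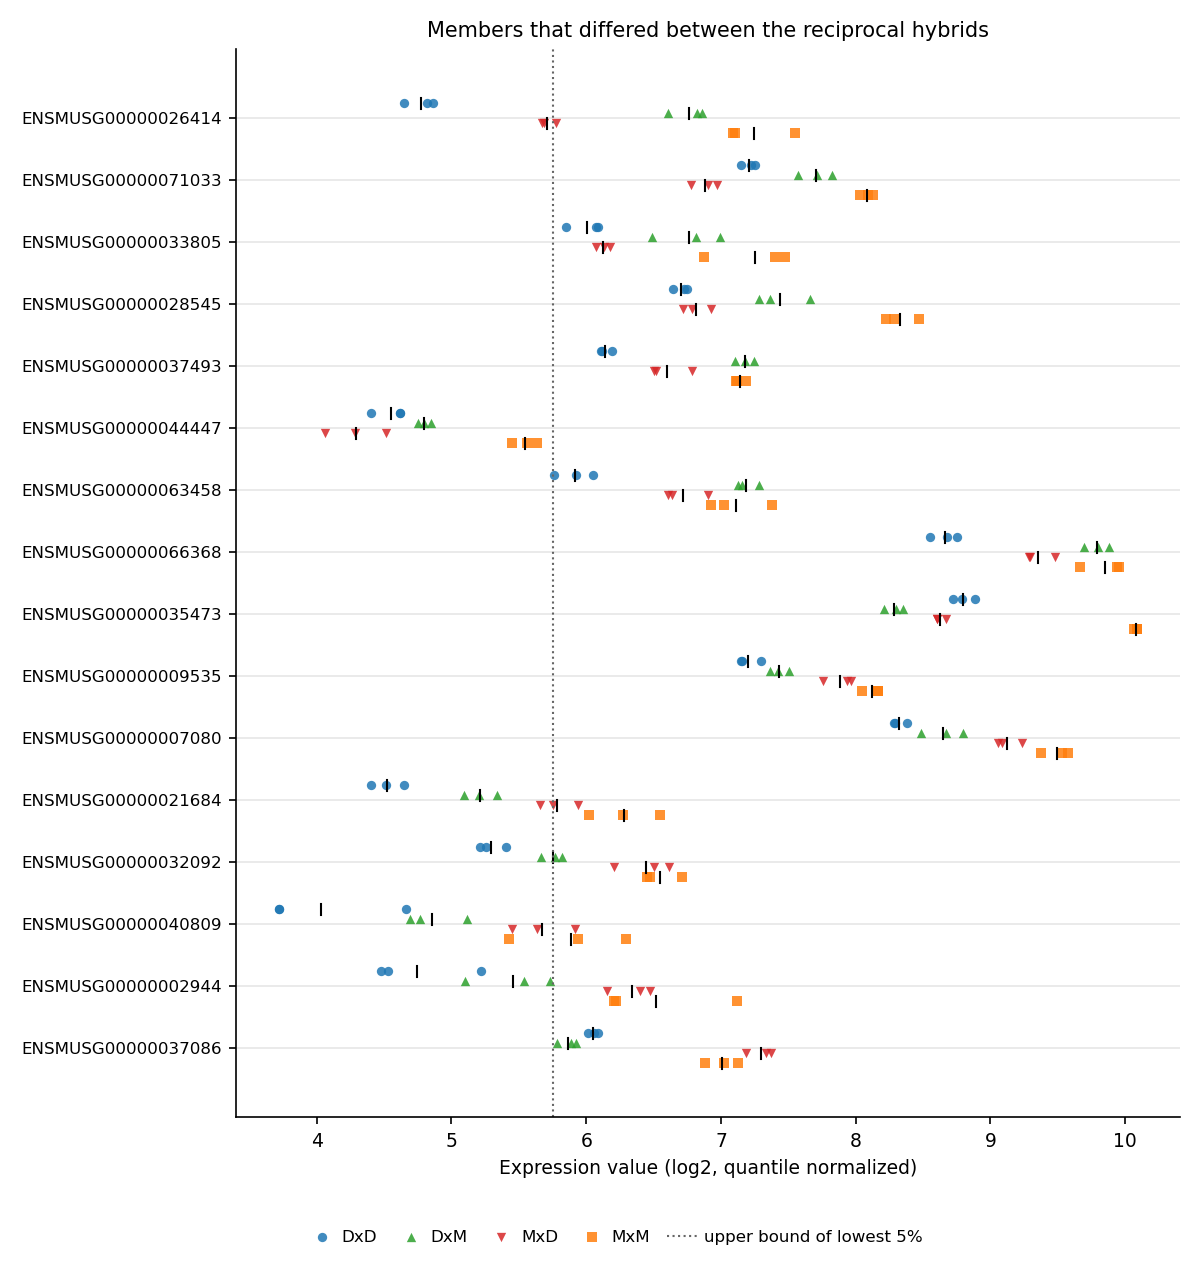
Expression values (log2, quantile normalized) of the 16 genes that differed between the reciprocal hybrids after adjustment, with 1 point per male, a black bar at the mean of 3 males and a dotted line at the upper bound of the lowest 5% of an array. The upper 8 genes are higher in *DxM* and the lower 8 higher in *MxD*, and in ENSMUSG00000037086 *DxM* sits with *DxD* and *MxD* with *MxM*.

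Where the genes lie was given in the sources used here for 36 autosomal genes, all on chromosomes 1 to 5. Of the 1997 genes stated to be on these chromosomes, 36 (1.80%) were in the set. There were 8 of 415 on chromosome 1, 6 of 589 on chromosome 2 and 10 of 361 on chromosome 3. Chromosome 4 had 10 of 435 and chromosome 5 had 2 of 197. Only a part of the study's list was used, so these need not be all measured genes of a chromosome. Cell classes, which name the testis cell population in which a gene is most induced, were given for 13 of the 36. There were 2 somatic genes of 142, 6 mitotic of 367, 2 meiotic of 324 and 3 postmeiotic of 269, and 23 of 895 genes without a class. The numbers are too small to compare the classes.

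The 3 autosomal postmeiotic genes, ENSMUSG00000005628, ENSMUSG00000038403 and ENSMUSG00000049160, differed by -0.30, -0.37 and -0.49 log2 units between *MxD* and *DxM*. None passed in the unblocked limma fit (adjusted p = 0.122, 0.0553 and 0.12), and all passed with the replicate block (adjusted p = 0.0189, 0.00564 and 0.00328). The block called 23.5% of all genes, and the share it called among all postmeiotic genes was not counted. The 269 genes stated to be postmeiotic on these chromosomes had a median difference of -0.20 log2 units, and the 367 mitotic genes one of 0.16. Whole testis is a mixture, and in such bulk samples fewer cells of a type and less RNA per cell cannot be told apart. In the *MxD* males, which are sterile, the part of the cell mixture in the differences between hybrids was not tested. The 6 mitotic genes of the set ranged from -1.05 in ENSMUSG00000026414 to 0.25 log2 units, so that gene was lower in *MxD* although the mitotic genes as a class were higher.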

How the data were processed

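Whole testis RNA of 12 males was measured, 3 males for each of 4 genotypes. The authors' methods state that PLIER combined the probes of each Ensembl gene through version 11 of the BRAINARRAY probe groupings. Genes whose perfect match signal exceeded the mismatch signal in every one of the 12 males were kept, followed by quantile normalization. The resulting log2 values, deposited by the authors for 7000 genes, were taken unchanged. Arrays give no read depth, and with 3 per genotype their number limits the precision. Chromosomes and cell classes came from the study's supplementary tables, of which a part was used.

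Members were found by the rule given at the opening. The set and the lists were chosen with earlier results of these data known. The reciprocal hybrids were compared with limma 3.58.1 in R 4.3.3 on the 6 hybrid arrays, two-sided, with Benjamini-Hochberg adjustment over 7000 genes. Position is the hybrid mean minus the *DxD* mean over the *MxM* mean minus the *DxD* mean. The labels do not say that males are from separate litters, so p-values measure the spread between these males. On simulated data of 7000 genes for this comparison, 95% of changes of 1 log2 unit and 65% of changes of 0.5 were recovered. The simulation drew each male independently, without the deviations that same-numbered hybrid males share, so these rates need not hold for these arrays.

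Same-numbered hybrid males deviated together from their genotype means (correlations across genes of 0.756, 0.565 and 0.411). Between males of different number the correlations ran from -0.652 to 0.226. Deviations from a mean of 3 males cancel out, so these correlations depend on each other. The numbers were therefore also tried as pairing. That pairing is inferred from these same values, and no source used here says what the numbers mark. Blocked results are given beside counts between the hybrids and for genes whose call they change among the 12 with the largest gap and the postmeiotic genes. Genes named are the 12 with the largest gap, 3 on either side of the threshold, the X-linked gene, up to 6 called in each direction between hybrids, the 6 lowest in *DxD* and the 4 with both hybrids nearest each species, beside those said to be named after their values were seen. Lists by symbol, neighbouring genes and cell type markers could not be applied. Alternatives were other thresholds and summaries, the methods' t-test, other limma fits, and each male left out. Figures were drawn with matplotlib 3.10.9.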

Additional observations from a re-analysis of the deposited data

How the results depend on the processing

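The number of genes follows the threshold. It was 245 with a gap of 0.5 log2 units, 60 with a gap of 1, 74 without the dimmest 25% of genes and 233 when the difference of the means had to reach 0.75, while leaving out 1 male gave 130 to 158. Leaving out a *DxD* or *MxM* male can only add genes or leave the set unchanged. The 16 genes that differed between the hybrids (4.99% of all genes) became 46 with the replicate block (same-numbered males taken as pairs, 23.5% of all genes). They became 49 at an unadjusted p under 0.05 (21.7%), and 6 of 74 without the dimmest 25% of genes (4.93% of all genes left). After Benjamini-Hochberg adjustment the methods' t-test gave 1 with equal variances (0.129% of all genes) and 0 with unequal variances (0%). The latter gave 34 at an unadjusted p under 0.05, against 15% of all genes. With 1 hybrid male left out the count was 3 to 17 (0.9% to 7.16% of all genes). Limma on all 4 genotypes gave 20 (6.5%), a trend and robust prior 15 (5.29%) and arrays centred on the autosomal median 17 (5.17%). Members chosen without the third *MxM* male, an alternative added after seeing the data, gave 18. With the block all 16 passed. Over the 13 other fits, 10 of the 16 genes were tested in 12 and 6 in all 13. The calls were kept in 109 of 198 such results and lost in 89, from 3 fits that kept the call in ENSMUSG00000035473 to 11 in ENSMUSG00000037086 and ENSMUSG00000071033. No direction changed, which most of these fits could not do since they keep the same difference of means. The X-linked gene passed in the other fits but not with the t-test with unequal variances, which called 0, and the count was 0 without the dimmest 25% of genes because the gene was not tested there. With each male left out the position of *DxM* was 0.54 to 0.57 and that of *MxD* 0.54 to 0.59. On linear values they were 0.44 and 0.46. *DxM* was at 0.60 with a gap of 1 log2 unit. *MxD* was at 0.53 over genes above the lowest 5% in *DxD*, at 0.51 with a gap of 0.5 log2 units and at 0.54 over members chosen without the third *MxM* male. The count of 34 low genes was 13 for the lowest 1% and 52 for the lowest 10% of the array. It was 31 when all 3 *DxD* males had to be below the bound. The cause of these changes was not tested, apart from the smaller numbers of genes that some of them leave.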
